A study of Mus musculus with 17 samples.

Results

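A set of 33 genes that p53 is known to switch on was followed gene by gene through 3 kinds of mouse mammary tumour and normal mammary tissue. The genes were named as p53 targets, by function and not by a threshold on their values here. Of these 33 genes, 31 had a probe set carrying their symbol alone, 1 probe set each, out of 19938 such genes on the array. Bax, which permeabilises the mitochondrial membrane in cell death, and Gdf15, a secreted stress cytokine, had none and were not analysed here.

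p53, encoded by Trp53, is a transcription factor that is stabilised after DNA damage and oncogenic stress and then binds a palindromic DNA element near its targets. The targets arrest the cell cycle, repair DNA, limit oxidation or kill the cell, and a few, such as Mdm2, feed back to destroy p53. Loss of Trp53 is common in mammary cancer, and loss of Rb1, whose product restrains the E2F transcription factors, often goes with it. Several of the targets also answer to other factors, and Apaf1 and Trp73 are known E2F1 targets as well.

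The 17 arrays, 1 per sample, covered 12 tumours and 5 samples of normal tissue, all on a mixed strain background. In 2 Rb/p53 tumours Cre recombinase was delivered by adenovirus (Ad-Cre, labelled Ad-CMVcre, which names the cytomegalovirus promoter), and both are labelled as transplants. In 7 Rb/p53 tumours Cre came from a transgene under the promoter of mouse mammary tumour virus (MMTV-Cre), active in mammary epithelium and some other tissues. Of these, replicate 1 came from a nulliparous mouse, replicate 2 from a parous mouse, and replicates 3 to 7 are labelled as transplants. The labels describe all 9 as deleted for Rb and p53. The 3 p53 tumours carried MMTV-Cre, with p53 and not Rb deleted, and whether they were transplants is not stated. The 5 normal samples were taken from Rb/p53 mice, and whether Cre had acted in them is not given in the sources used here. Nor are the alleles, ages, transplant hosts, or whether each normal sample was from its own animal, so p-values measure only the spread between these samples. Because both Ad-Cre tumours are transplants, Cre delivery and transplantation can be separated only against the 5 MMTV-Cre transplants.

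The targeted gene on the array, Rb1, averaged 9.60 ± 0.33 in Ad-Cre tumours (n = 2), 9.52 ± 0.22 in MMTV-Cre tumours (n = 7), 10.40 ± 0.54 in p53 tumours (n = 3) and 11.21 ± 0.27 in normal tissue (n = 5), in log2 units with SD. It was lower than in normal tissue in all 3 tumour groups (limma adjusted p = 4.66e-04, 3.15e-06 and 0.0162 in the order given). Between MMTV-Cre and p53 tumours Rb1 differed by -0.88 ± 0.21 (SE, adjusted p = 0.0572), which did not pass. Trp53 itself was not analysed here, as no probe set carried its symbol alone. An array was unlike the rest, that of p53 replicate 2: its correlations over probe sets were 0.888 to 0.915, against 0.929 or more for all other pairs, and its values had an interquartile range of 2.39, against 2.91 to 3.18 elsewhere. For p53 replicate 3 the labels conflict, since the title gives the Rb/p53 model and the other 3 fields that name a genotype give p53 deletion. Its Rb1 level was 10.27, against 9.29 to 9.92 in the 9 Rb/p53 tumours, 9.93 and 11.00 in the other p53 tumours and 10.93 to 11.50 in normal tissue. That array stayed in the p53 group, and calls of the 31 targets that rest on either array are given without it as well. Calls of other single genes are given with all arrays only. All 31 genes were above the dim level of 6.37, the lowest 25th percentile of any array, on every array.

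Tumours and normal tissue also differed in the markers of several cell types. The mean log2 level of 8 adipocyte markers was 7.47 to 8.77 in the 12 tumours and 12.64 to 13.12 in normal tissue, and all 8 fell in each tumour group. That of 10 luminal epithelial markers was 8.12 to 10.05 in tumours and 11.00 to 11.20 in normal tissue, and 8 basal markers gave 7.85 to 8.96 against 10.39 to 10.83. The mean of 7 macrophage markers ran higher, at 10.59 to 12.84 in tumours against 10.08 to 10.50. Of these 7, 6 were higher and 1 lower in Ad-Cre and in MMTV-Cre tumours, and all 7 were higher in p53 tumours. By limma 1, 3 and 5 of them were called in that order. Skeletal muscle markers, 6 in all, were at 7.18 to 8.03 in tumours and 8.23 to 10.44 in normal tissue. Fat and epithelial markers of the mammary gland were thus high in the normal samples, and in every tumour the mean of the luminal markers was lower but above the dim level. In bulk samples, fewer cells of a type and less RNA per cell cannot be told apart, and the part of cell makeup in the differences below was not tested.

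The promoters of the genes were searched for the p53 consensus element. RefSeq promoter windows on build GRCm38.p6, from 250 bases before to 50 after the start of transcription, were matched for 25 of the 33 genes. Pmaip1, Trp53inp1, Zmat3, Perp, Tnfrsf10b, Ddb2, Xpc and Rrm2b had no window in the set searched. That set did not cover every gene, so a lack of a RefSeq entry is not shown for them. The p53 half-site, a palindrome of 10 bases searched on both strands, was found for 10 of the 25 genes (40.0%), against 9.55% of the 27025 genes searched. A gene with several starts had several windows and was counted once if any of them matched, so it had more chances to match. The genes with it were Aen, Bax, Ccng1, Ckap2, Ei24, Gadd45a, Mdm2, Polk, Rps27l and Sesn1. The full element was 2 adjoining half-sites with at most 2 mismatches in 20 bases. It was found for 4 of the 25 genes (16.0%), against 0.940% of the genes searched. A match of letters is a description and not a bound site, and elements outside these windows were not searched. The 4 matches are shown because they are the closest to the element that p53 binds. Each stretch of 60 bases is written 5′ to 3′ on the strand of the gene, with the element in capitals.

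Ccng1, chr11:40755442-40755501, minus strand, 1 mismatch, 195 to 176 bases before the start: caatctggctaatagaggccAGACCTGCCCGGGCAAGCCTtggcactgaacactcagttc
Ckap2, chr8:22185983-22186042, minus strand, 2 mismatches, 203 to 184 bases before the start: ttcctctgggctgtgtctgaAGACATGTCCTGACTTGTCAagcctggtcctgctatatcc
Rps27l, chr9:66946276-66946335, plus strand, 1 mismatch, 117 to 98 bases before 1 of its 2 starts: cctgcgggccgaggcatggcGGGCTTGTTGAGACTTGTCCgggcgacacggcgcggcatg
Trp73, chr4:154097200-154097259, minus strand, 2 mismatches, 66 to 47 bases before 1 of its 2 starts: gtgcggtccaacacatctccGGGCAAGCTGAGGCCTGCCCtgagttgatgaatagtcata

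The 4 genes did not move as a block. Ccng1 was lower and Ckap2 higher in MMTV-Cre tumours than in normal tissue, and Rps27l and Trp73 did not pass the test in any comparison, as described in turn below.

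Differences between groups are log2 differences from 1 fit of all 17 arrays in 4 groups (limma, with a standard error that pools the spread of the groups). A gene was called where its p was below 0.05 after Benjamini-Hochberg adjustment across all 19938 genes. Counts at an unadjusted p below 0.05 are given without the share of all genes at that cutoff, which was not computed. Such counts are therefore not read as results about the lists. A log2 difference of 1 is a doubling of signal. The 3 comparisons with normal tissue share the same 5 normal arrays, so their values are given side by side and their overlap is not counted.

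In MMTV-Cre Rb/p53 tumours, 12 of the 31 measured targets differed from normal tissue (38.7%), against 24.6% of all genes. Of these 12, 6 were higher and 6 lower, where 12.0% of all genes were higher and 12.6% lower. In Ad-Cre Rb/p53 tumours 4 were higher and 0 lower (12.9% called, against 12.4% of all genes, 5.32% of them higher and 7.09% lower), and 14 had an unadjusted p below 0.05. In p53 tumours 3 were higher and 5 lower (25.8%, against 19.6% of all genes, 7.69% higher and 11.9% lower). These splits depended on the scaling: after cyclic loess they were 3 higher and 3 lower in Ad-Cre, 5 and 8 in MMTV-Cre, and 3 and 6 in p53 tumours. The median difference of the 31 targets was 0.05 in Ad-Cre, 0.05 in MMTV-Cre and -0.03 in p53 tumours, beside -0.00, 0.04 and 0.09 for all genes. The median size without sign was 0.45, 0.47 and 0.33, beside 0.23, 0.19 and 0.26. The median of the targets thus lay near that of all genes in each tumour group, while single targets were called in both directions in MMTV-Cre and p53 tumours and only higher in Ad-Cre tumours, before the change of scaling named above.

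**Figure D1:**
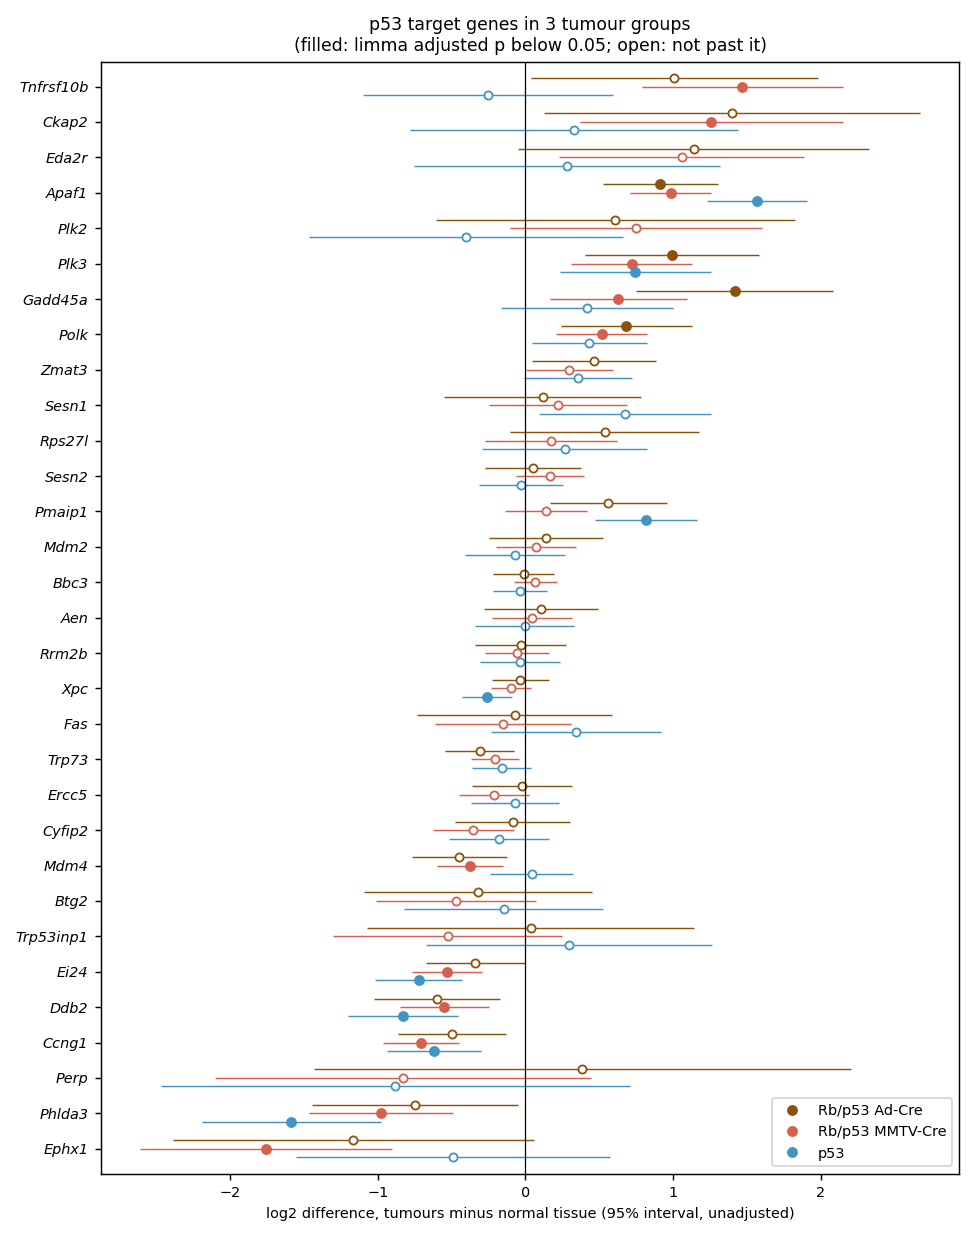
Log2 difference of each of the 31 measured p53 targets from normal tissue (horizontal axis, tumours minus normal) in Ad-Cre Rb/p53, MMTV-Cre Rb/p53 and p53 tumours, with unadjusted 95% intervals; filled points passed the adjusted threshold. Apaf1 and Plk3 are filled on the right in all 3 groups, and Phlda3, Ei24, Ddb2 and Ccng1 on the left in the MMTV-Cre and p53 groups.

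Among the 5 genes that regulate p53 or feed back on it, Mdm2, the ubiquitin ligase that marks p53 for destruction and the best known p53 target, did not differ in any comparison. It measured 9.70 and 10.17 in the Ad-Cre tumours, had a lowest, median and highest level of 9.47, 9.87 and 10.23 in MMTV-Cre tumours, measured 9.96, 9.54 and 9.68 in the p53 tumours, and 9.68, 9.83, 10.04, 9.77 and 9.68 in normal tissue. All groups overlapped. The difference from normal tissue was 0.14 in Ad-Cre (95% interval -0.25 to 0.52), 0.07 in MMTV-Cre (-0.20 to 0.34) and -0.07 in p53 tumours (-0.41 to 0.27), so these intervals leave room for moderate change either way.

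Ccng1, cyclin G1, which acts with protein phosphatase 2A in the Mdm2 loop, fell. Its level was 11.98 and 11.98 in the Ad-Cre tumours, 11.39, 11.79 and 12.03 at the lowest, median and highest in MMTV-Cre tumours, 11.51, 12.01 and 12.07 in the p53 tumours, and 12.37, 12.51, 12.38, 12.66 and 12.49 in normal tissue. Every tumour was below every normal sample. The log2 difference was -0.71 ± 0.12 (SE) in MMTV-Cre tumours (limma adjusted p = 4.29e-04) and -0.62 ± 0.15 in p53 tumours (adjusted p = 0.0086), and -0.50 ± 0.17 in Ad-Cre tumours (adjusted p = 0.07), which did not pass. Without p53 replicate 1 the p53 value was -0.44 (adjusted p = 0.0531).

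Mdm4, the relative of Mdm2 that blocks the activation domain of p53, was lower in MMTV-Cre tumours, at 9.47 ± 0.19 (SD, n = 7) against 9.85 ± 0.09 (n = 5) in normal tissue, a difference of -0.38 ± 0.11 (SE, adjusted p = 0.016). It averaged 9.40 ± 0.15 in Ad-Cre tumours (difference -0.45, adjusted p = 0.0653) and 9.89 ± 0.25 in p53 tumours (0.04, adjusted p = 0.841). Trp73, the p53 family member p73, was low throughout, at 6.84 to 7.36 over all arrays, and Trp53inp1, a nuclear protein that aids p53 phosphorylation, ran from 9.19 to 12.23. Neither passed the test in any comparison.

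Among the 11 measured genes of cell death, Apaf1 changed most steadily. Its product forms the apoptosome, which activates caspase-9. It measured 9.59 and 10.01 in the Ad-Cre tumours, 9.54, 9.85 and 10.21 at the lowest, median and highest in MMTV-Cre tumours, 10.81, 10.46 and 10.08 in the p53 tumours, and 8.95, 8.76, 8.84, 8.94 and 8.93 in normal tissue. No tumour overlapped the normal range, and p53 tumours lay above most Rb/p53 tumours. Apaf1 rose by 0.91 ± 0.18 in Ad-Cre (adjusted p = 0.00356), 0.98 ± 0.13 in MMTV-Cre (adjusted p = 3.52e-05) and 1.57 ± 0.16 in p53 tumours (adjusted p = 4.61e-06). Without Ad-Cre replicate 2, which left 1 Ad-Cre tumour, that value was 0.70 (adjusted p = 0.0965), and the remaining tumour was still above every normal sample.

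Tnfrsf10b, the receptor for the death ligand TRAIL, was high in Rb/p53 tumours. It measured 9.86 and 10.61 in the Ad-Cre tumours, 10.25, 10.60 and 11.49 at the lowest, median and highest in MMTV-Cre tumours, 9.98, 7.62 and 9.34 in the p53 tumours, and 8.90, 9.35, 9.00, 9.43 and 9.49 in normal tissue. Every Rb/p53 tumour exceeded every normal sample, and the p53 tumours spanned the widest range, with replicate 2 the lowest of all 17 arrays. The difference from normal tissue was 1.47 ± 0.32 in MMTV-Cre tumours (adjusted p = 0.00314). It was 1.01 ± 0.46 in Ad-Cre (adjusted p = 0.176) and -0.25 ± 0.40 in p53 tumours (adjusted p = 0.672), neither past the threshold. Without p53 replicate 2 the p53 difference was 0.42, of opposite sign and also not past it.

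Pmaip1, which encodes the BH3-only killer protein Noxa, showed another order. It measured 7.58 and 8.10 in the Ad-Cre tumours, 7.02, 7.47 and 7.56 at the lowest, median and highest in MMTV-Cre tumours, 7.73, 8.12 and 8.44 in the p53 tumours, and 7.36, 7.32, 7.19, 7.38 and 7.16 in normal tissue. The p53 tumours lay above all MMTV-Cre tumours and all normal samples. Pmaip1 rose by 0.82 ± 0.16 in p53 tumours (adjusted p = 0.00206), while the difference was 0.56 ± 0.19 in Ad-Cre (adjusted p = 0.0599) and 0.14 ± 0.13 in MMTV-Cre tumours (adjusted p = 0.517). With p53 replicate 3 counted as an MMTV-Cre Rb/p53 tumour, as its title reads, the p53 value was 0.65 (adjusted p = 0.074).

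Phlda3, which opposes the survival kinase Akt at the membrane, fell. Its level was 10.02 and 10.31 in the Ad-Cre tumours, 9.55, 9.97 and 10.11 at the lowest, median and highest in MMTV-Cre tumours, 10.08, 8.23 and 9.66 in the p53 tumours, and 10.97, 11.18, 10.89, 10.88 and 10.63 in normal tissue. All tumours lay below all normal samples. The difference was -0.98 ± 0.23 in MMTV-Cre tumours (adjusted p = 0.00521) and -1.59 ± 0.29 in p53 tumours (adjusted p = 9.91e-04), which was -1.04 without p53 replicate 2 (adjusted p = 5.19e-04). In Ad-Cre tumours it was -0.75 ± 0.33 (adjusted p = 0.159).

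Ei24, an endoplasmic reticulum protein with roles in cell death and autophagy, was lower in both MMTV-Cre tumours, at 10.21 ± 0.09 (SD, n = 7), and p53 tumours, at 10.02 ± 0.16 (n = 3), than in normal tissue, at 10.74 ± 0.29 (n = 5). The differences were -0.53 ± 0.11 (SE, adjusted p = 0.00222) and -0.72 ± 0.14 (adjusted p = 0.00155). Ad-Cre tumours averaged 10.40 ± 0.04, a difference of -0.34 (adjusted p = 0.186).

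Bbc3, which encodes the BH3-only protein Puma, and the death receptor gene Fas did not pass in any of these comparisons. Bbc3 measured 7.19 and 7.10 in the Ad-Cre tumours, 7.06, 7.24 and 7.34 at the lowest, median and highest in MMTV-Cre tumours, 7.13, 7.21 and 7.04 in the p53 tumours, and 7.30, 7.14, 7.18, 7.05 and 7.13 in normal tissue. All 4 groups shared this narrow range. Fas measured 7.46 and 7.81 in the Ad-Cre tumours, 7.27, 7.52 and 7.94 at the lowest, median and highest in MMTV-Cre tumours, 7.92, 8.97 and 7.27 in the p53 tumours, and 8.03, 7.61, 7.89, 7.61 and 7.41 in normal tissue. Only p53 replicate 2 was above the normal range. The remaining death genes, Perp, Eda2r, Aen and Cyfip2, did not pass either; Eda2r, a receptor of the tumour necrosis factor family, differed by 1.06 in MMTV-Cre tumours (adjusted p = 0.0607) and Cyfip2 by -0.35 (adjusted p = 0.0564).

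**Figure D2:**
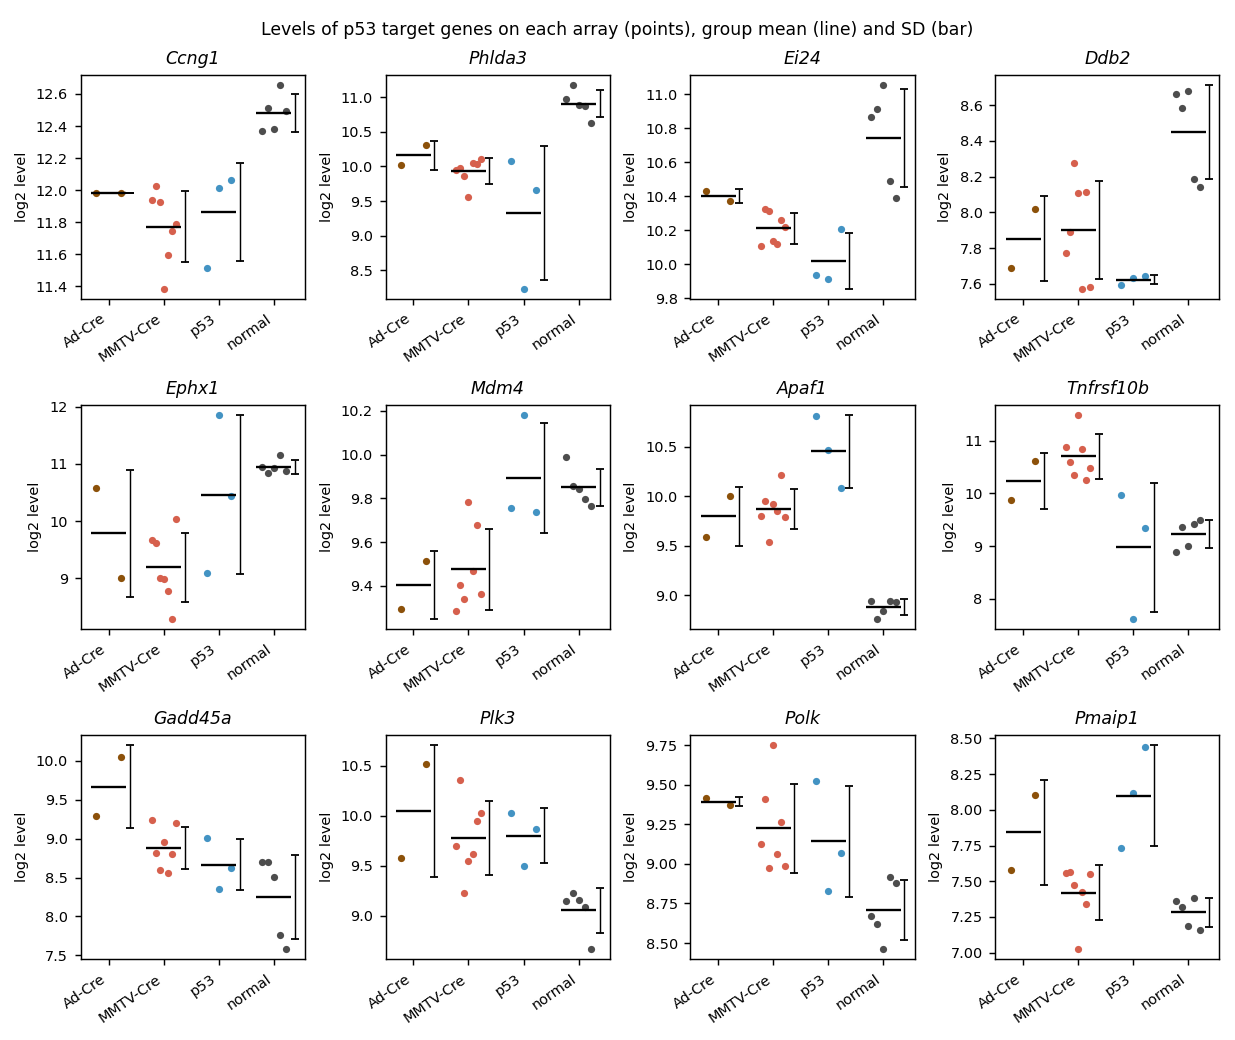
Log2 level (vertical axes) of 12 p53 targets on each array, in columns Ad-Cre Rb/p53, MMTV-Cre Rb/p53, p53 and normal; points are arrays, lines group means and bars SD. Apaf1 is 9.54 or higher in every tumour and 8.95 or lower in every normal sample, and Ccng1 and Phlda3 are lower in every tumour than in every normal sample.

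Of the 7 measured genes of arrest and stress, 2 were called in Ad-Cre (28.6%, against 12.4% of all genes), 3 in MMTV-Cre (42.9%, against 24.6%) and 1 in p53 tumours (14.3%, against 19.6%), all of them higher. Plk3, a stress-responsive kinase, measured 9.58 and 10.51 in the Ad-Cre tumours, 9.23, 9.70 and 10.35 at the lowest, median and highest in MMTV-Cre tumours, 10.03, 9.50 and 9.87 in the p53 tumours, and 9.14, 9.23, 9.15, 9.08 and 8.67 in normal tissue. The lowest MMTV-Cre tumour met the highest normal sample, and the other tumours lay above. The difference was 0.99 ± 0.28 in Ad-Cre (adjusted p = 0.0282), 0.72 ± 0.19 in MMTV-Cre (adjusted p = 0.0124) and 0.74 ± 0.24 in p53 tumours (adjusted p = 0.0412). The call was lost in Ad-Cre tumours without Ad-Cre replicate 2 (0.52, adjusted p = 0.437) or normal replicate 5 (adjusted p = 0.0545). In p53 tumours it was lost when MMTV-Cre tumour 1 or 5, p53 tumour 1 or 3, or any 1 normal sample was left out (adjusted p up to 0.123).

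Gadd45a, which slows the cycle and aids repair after damage, measured 9.29 and 10.04 in the Ad-Cre tumours, 8.55, 8.81 and 9.24 at the lowest, median and highest in MMTV-Cre tumours, 9.01, 8.36 and 8.63 in the p53 tumours, and 8.70, 8.70, 8.51, 7.77 and 7.58 in normal tissue. Both Ad-Cre tumours were above every other array. Gadd45a rose by 1.42 ± 0.31 in Ad-Cre (adjusted p = 0.00721), a call lost without Ad-Cre replicate 2 (1.04, adjusted p = 0.152), and by 0.63 ± 0.22 in MMTV-Cre tumours (adjusted p = 0.0472). The MMTV-Cre call was lost without any of MMTV-Cre tumours 1, 2, 4, 6 and 7, p53 tumour 3, and normal samples 3, 4 and 5, with an adjusted p up to 0.14. In p53 tumours the difference was 0.41 ± 0.27 (adjusted p = 0.292).

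Ckap2, a spindle protein of dividing cells, averaged 9.53 ± 0.20 in Ad-Cre (n = 2), 9.39 ± 0.55 in MMTV-Cre (n = 7), 8.46 ± 1.25 in p53 tumours (n = 3) and 8.13 ± 0.86 in normal tissue (n = 5). It rose by 1.26 ± 0.42 in MMTV-Cre tumours (adjusted p = 0.0387), which did not overlap normal tissue. That call was lost without MMTV-Cre replicate 1, 2, 3 or 5 or normal replicate 1, 3 or 4, with a difference of 0.90 (adjusted p = 0.122) without normal replicate 1. Of 9 measured proliferation markers 7 were higher in MMTV-Cre tumours as well, and their mean was 10.64 and 10.75 in the Ad-Cre tumours, 10.39 to 10.99 in MMTV-Cre tumours, 11.08, 8.62 and 10.72 in the p53 tumours, and 7.57, 9.71, 9.37, 9.11 and 10.27 in normal tissue. The array lowest for the markers in each of the last 2 groups was also lowest for Ckap2, at 7.03 in p53 replicate 2 and 6.70 in normal replicate 1, and the part of proliferation in the result was not tested. Btg2, an antiproliferative protein, Plk2, a stress kinase, Zmat3, an RNA-binding protein, and Rps27l, a ribosomal protein, did not pass in any comparison.

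Of the 3 genes of redox control and metabolism, Ephx1 fell. It encodes microsomal epoxide hydrolase, which detoxifies reactive epoxides. Its level was 10.57 and 9.00 in the Ad-Cre tumours, 8.29, 9.01 and 10.03 at the lowest, median and highest in MMTV-Cre tumours, 9.09, 11.85 and 10.44 in the p53 tumours, and 10.95, 10.84, 10.93, 11.16 and 10.88 in normal tissue. All MMTV-Cre tumours were below the narrow normal range, whereas p53 replicate 2 was above it. The difference was -1.76 ± 0.40 in MMTV-Cre tumours (adjusted p = 0.00444), -1.17 ± 0.57 in Ad-Cre (adjusted p = 0.215) and -0.49 ± 0.50 in p53 tumours (adjusted p = 0.503). Single arrays moved the last 2 values: the Ad-Cre difference was -1.95 without replicate 1 and -0.38 without replicate 2, and the p53 difference was 0.20 without replicate 1 and -1.19 without replicate 2, none past the threshold. The sestrins Sesn1 and Sesn2, which restrain mTORC1 and oxidation, did not pass; Sesn1 was highest on the p53 replicate 2 array, at 12.04, against 9.99 to 10.96 on the others.

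Among the 5 repair genes, Ddb2, which recognises ultraviolet lesions, fell. It averaged 7.85 ± 0.24 in Ad-Cre (n = 2), 7.90 ± 0.27 in MMTV-Cre (n = 7), 7.62 ± 0.03 in p53 tumours (n = 3) and 8.45 ± 0.26 in normal tissue (n = 5). The difference was -0.55 ± 0.14 in MMTV-Cre (adjusted p = 0.00941) and -0.83 ± 0.18 in p53 tumours (adjusted p = 0.00346), and -0.60 ± 0.20 in Ad-Cre (adjusted p = 0.065), which did not pass. Xpc, its partner in lesion recognition, was lower in p53 tumours, at 8.05 ± 0.06 against 8.31 ± 0.09 in normal tissue, by -0.26 ± 0.08 (adjusted p = 0.0322). Leaving out p53 tumour 1 or any of normal samples 1, 2 and 3 lost this call.

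Polk, a DNA polymerase that copies past damaged bases, rose in both Rb/p53 models. It averaged 9.39 ± 0.03 in Ad-Cre (n = 2), 9.22 ± 0.28 in MMTV-Cre (n = 7), 9.14 ± 0.35 in p53 tumours (n = 3) and 8.71 ± 0.19 in normal tissue (n = 5). The differences were 0.68 ± 0.21 in Ad-Cre (adjusted p = 0.043), 0.51 ± 0.15 in MMTV-Cre (adjusted p = 0.0169) and 0.43 ± 0.18 in p53 tumours (adjusted p = 0.106). The MMTV-Cre call was lost without normal replicate 3 (0.45, adjusted p = 0.0523). The Ad-Cre call was lost without MMTV-Cre replicate 1, 5 or 6, either Ad-Cre tumour, or normal replicate 1, 2 or 3. Ercc5, a nuclease of excision repair, and Rrm2b, the p53-inducible ribonucleotide reductase subunit, did not pass in any comparison.

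The MMTV-Cre tumours were also compared with normal tissue by origin, on fewer arrays. With the 5 transplants as the only MMTV-Cre tumours, 3 of the 12 calls were lost, with differences close to those of all 7 tumours: Ckap2 at 1.29 (adjusted p = 0.0761), Gadd45a at 0.57 (adjusted p = 0.122) and Mdm4 at -0.32 (adjusted p = 0.0636). Calls over all genes fell as well, to 20.8% from 24.6% with all 7 tumours. With the 2 tumours not labelled as transplants, Apaf1 (0.99, adjusted p = 0.00704) and Plk3 (0.97, adjusted p = 0.046) passed, and 10.2% of all genes did. The other 10 kept their direction, with Mdm4 at -0.50, Gadd45a at 0.78, Ccng1 at -0.50 and Ephx1 at -1.31. Whether origin matters was not tested.

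The p53 arrays entered every comparison through the shared spread. Without p53 replicate 2, 9 targets were called in Ad-Cre tumours, 15 in MMTV-Cre and 9 in p53 tumours, while calls over all genes rose as well, to 19.1%, 31.4% and 21.1%. Added in Ad-Cre tumours were Tnfrsf10b (1.01, adjusted p = 0.0305), Pmaip1 (0.56, adjusted p = 0.0491), Phlda3 (-0.75, adjusted p = 0.00608), Mdm4 (-0.45, adjusted p = 0.0243) and Trp73 (-0.31, adjusted p = 0.0331). Added in MMTV-Cre tumours were Plk2 (0.75, adjusted p = 0.036), Trp73 (-0.21, adjusted p = 0.0271) and Cyfip2 (-0.35, adjusted p = 0.034), and in p53 tumours Polk (0.59, adjusted p = 0.0448). Without p53 replicate 3, 8 were called in p53 tumours, with Fas added (0.74, adjusted p = 0.0367) and Plk3 lost, beside 26.2% of all genes.

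Among the tumour models, MMTV-Cre Rb/p53 tumours were compared with p53 tumours, which differ by the label of Rb deletion. They may differ in origin too, since 5 of the 7 MMTV-Cre tumours are transplants and the origin of the p53 tumours is not stated, so genotype and origin cannot be told apart here. Here 1 of the 31 targets was higher and 1 lower (6.45% called), against 0.938% of all genes (0.602% higher and 0.336% lower), and 8 targets had an unadjusted p below 0.05. Tnfrsf10b was higher in MMTV-Cre tumours, at 10.70 ± 0.42 (SD, n = 7), than in p53 tumours, at 8.98 ± 1.22 (n = 3), by 1.72 ± 0.38 (SE, adjusted p = 0.0456). Pmaip1 was lower in MMTV-Cre tumours, at 7.42 ± 0.19, than in p53 tumours, at 8.10 ± 0.35, by -0.68 ± 0.15 (adjusted p = 0.049). In the levels given above neither gene overlapped between the 2 groups, but how many of all genes did not overlap was not counted.

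Both calls were close to the threshold. They held without MMTV-Cre replicate 2, either Ad-Cre tumour, p53 replicate 1 or p53 replicate 3, and were lost on leaving out any other array. Without p53 replicate 2, the Tnfrsf10b difference was 1.04 (adjusted p = 0.211) and that of Pmaip1 was -0.67 (adjusted p = 0.194). The macrophage markers were highest on that array, at a mean of 12.84, against 10.62 to 11.60 in MMTV-Cre tumours, and its proliferation markers were the lowest of the tumours. The mean of 7 T cell markers was 6.73 to 7.23 in MMTV-Cre tumours and 7.39 to 8.06 in p53 tumours, with 1 of the 7 called lower and 6 at an unadjusted p below 0.05. The part of these cell types in the result was not tested. Without p53 replicate 3, whose title conflicts with its other labels, calls rose over the whole array, to 13.6% of all genes, and 5 of the 31 targets were called: Tnfrsf10b (1.90, adjusted p = 0.0192), Pmaip1 (-0.51, adjusted p = 0.0491), Apaf1 (-0.77, adjusted p = 0.0105), Fas (-0.89, adjusted p = 0.0274) and Mdm4 (-0.49, adjusted p = 0.0378). With all p53 arrays Apaf1 differed by -0.59 (adjusted p = 0.0723) and Mdm4 by -0.42 (adjusted p = 0.0995), neither past the threshold. Moving p53 replicate 3 to the MMTV-Cre tumours, as its title reads, kept the Tnfrsf10b call (1.73, limma adjusted p = 0.0321). The Pmaip1 call was lost by that move, at -0.38 (adjusted p = 0.276), while 15.3% of all genes were called.

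Between Ad-Cre and MMTV-Cre Rb/p53 tumours 0 of the 31 targets were called by limma, and 0.0251% of all genes were. Of these 7 MMTV-Cre tumours 2 are not labelled as transplants, so Cre delivery and origin cannot be told apart in this fit. With the 5 transplants as the only MMTV-Cre tumours no target was called either, and 0.01% of all genes were. In the fit with all 7 MMTV-Cre tumours, 2 of the 31 had an unadjusted p below 0.05, Gadd45a and Pmaip1. The share of all genes at that cutoff was not computed. Gadd45a was 9.67 ± 0.53 in Ad-Cre (n = 2) and 8.88 ± 0.27 in MMTV-Cre tumours (n = 7), a difference of 0.79 with an interval of 0.15 to 1.43. Pmaip1 was 7.84 ± 0.37 in Ad-Cre and 7.42 ± 0.19 in MMTV-Cre tumours, a difference of 0.42 with an interval of 0.05 to 0.80. Neither gene overlapped between the groups, but how many of all genes did not overlap was not counted. Neither gene passed the adjusted threshold.

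**Figure D3:**
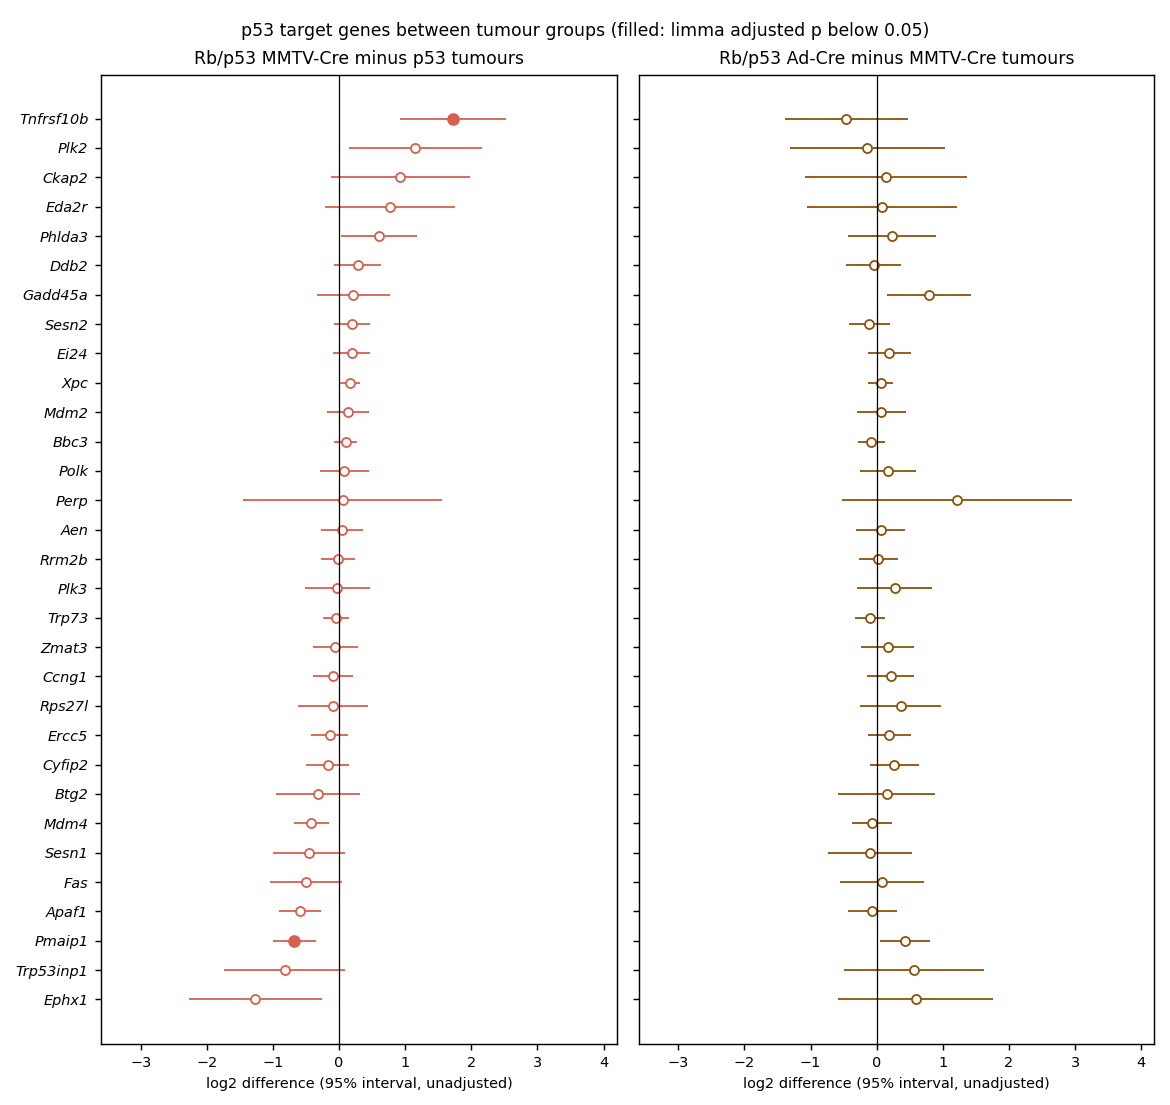
Log2 difference of the 31 targets between tumour groups (horizontal axes, unadjusted 95% intervals; filled points passed the adjusted threshold): MMTV-Cre Rb/p53 minus p53 tumours on the left panel and Ad-Cre minus MMTV-Cre Rb/p53 tumours on the right. Tnfrsf10b at 1.72 and Pmaip1 at -0.68 are filled on the left, and 0 points are filled on the right.

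Among the 31 targets, the MMTV-Cre tumours differed from each other most in Perp, a desmosome protein of epithelia with a part in p53-dependent death. Perp measured 10.41 and 10.76 in the Ad-Cre tumours, 6.76, 9.50 and 11.61 at the lowest, median and highest in MMTV-Cre tumours, 8.90, 9.23 and 9.83 in the p53 tumours, and 10.06, 10.45, 10.42, 9.88 and 10.21 in normal tissue. Its SD of 1.61 over the 7 MMTV-Cre tumours exceeded that of 99.6% of all genes. That of Eda2r, 0.99, exceeded 97.8%, with levels of 6.89 to 9.58. The median SD of the 31 targets was 0.21, and Xpc was among the steadiest, at 0.05.

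The parous MMTV-Cre tumour, replicate 2, had the highest Perp and the highest mean of the luminal markers, 10.05, and replicate 7 had the lowest Perp and a luminal mean of 8.27, beside 8.27 to 9.94 in the other MMTV-Cre tumours. The order was not shared throughout, since replicate 4 had a Perp level of 10.47 and a luminal mean of 8.55. Replicate 3 departed the other way, with a Perp level of 8.93, below the group median, and a luminal mean of 9.94. The part of epithelial content in this spread was not tested. Among the p53 tumours, replicate 2 gave the extremes of many targets: Trp53inp1 was 12.23 there, against 9.62 and 10.00 in replicates 1 and 3, and Plk2 was 7.56, against 10.45 and 9.92.

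**Figure D4:**
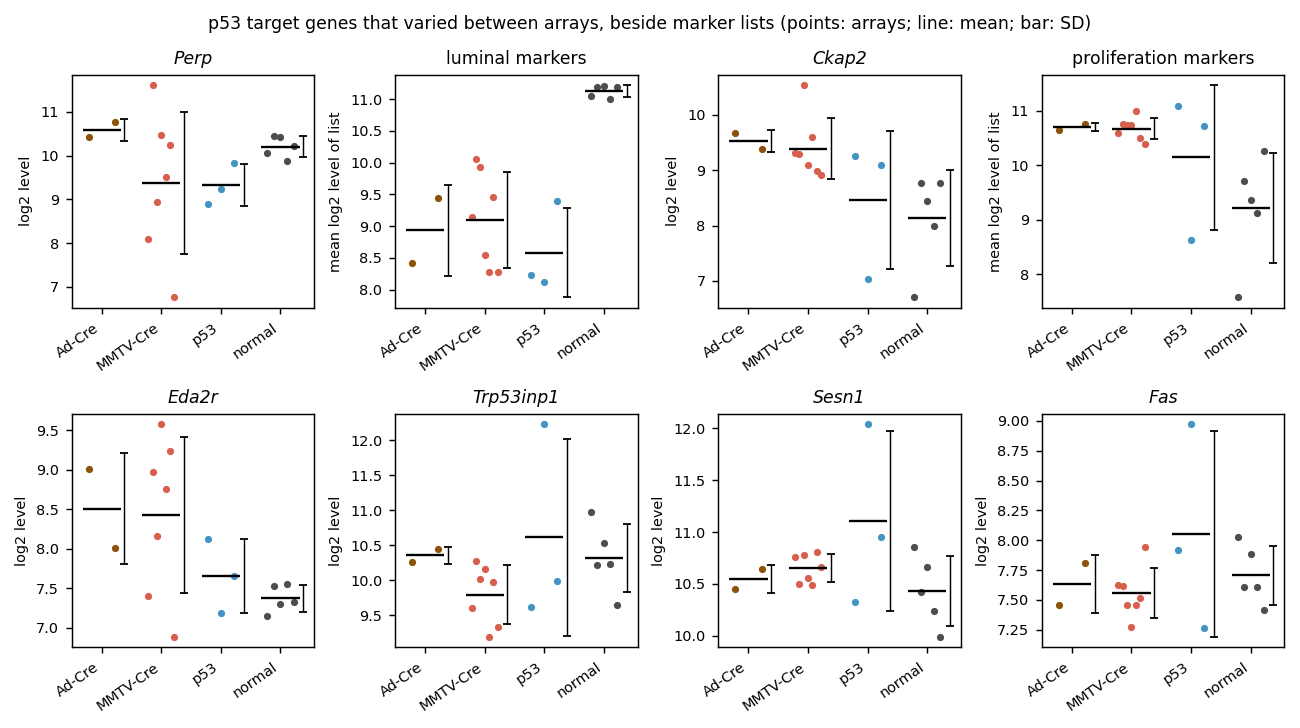
Log2 levels of Perp, Ckap2, Eda2r, Trp53inp1, Sesn1 and Fas, and mean log2 levels of the luminal and proliferation marker lists, on each array (points, with group mean as line and SD as bar) in Ad-Cre Rb/p53, MMTV-Cre Rb/p53, p53 and normal samples. Perp spans 6.76 to 11.61 in MMTV-Cre tumours and 9.88 to 10.45 in normal tissue.

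The wider pathway was described with 2 further lists. Of 18 measured regulators upstream of p53, 2 were higher and 1 lower in Ad-Cre (16.7% called, against 12.4% of all genes), 3 higher and 2 lower in MMTV-Cre (27.8%, against 24.6%), and 2 higher and 3 lower in p53 tumours (27.8%, against 19.6%), relative to normal tissue. Cdkn2a rose in every tumour group, by 3.27 ± 0.60 in Ad-Cre (limma adjusted p = 0.0019), 2.61 ± 0.42 in MMTV-Cre (adjusted p = 2.83e-04) and 2.15 ± 0.53 in p53 tumours (adjusted p = 0.00898). Its Arf product shields p53 from Mdm2, but the level read here does not separate the products of the gene. Cdkn2a was 8.30 in MMTV-Cre replicate 4 and 8.33 in p53 replicate 2, against 10.03 or more in the other tumours and 7.43 to 7.75 in normal tissue. Trp63, the p53 family member of basal epithelium, fell by 1.31 in Ad-Cre, 1.17 in MMTV-Cre and 1.55 in p53 tumours (adjusted p = 4.18e-04, 1.63e-05 and 1.37e-05). It is itself one of the basal markers that were lower in tumours. Atm, the kinase that reports double-strand breaks, rose by 0.74 in Ad-Cre (adjusted p = 0.032) and 0.47 in MMTV-Cre tumours (adjusted p = 0.0292).

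The other upstream genes past the threshold were fewer. In MMTV-Cre tumours Rchy1, a ubiquitin ligase for p53, rose by 0.63 (adjusted p = 0.00576) and Hipk2, a p53 kinase, fell by 1.01 (adjusted p = 1.88e-04). In p53 tumours Hipk2 fell by 1.00 (adjusted p = 0.00171), the checkpoint kinase gene Chek2 fell by 0.92 (adjusted p = 0.0164) and the acetyltransferase gene Ep300 rose by 0.46 (adjusted p = 0.0496). None of the 18 passed between tumour groups in the limma fit, where 4 had an unadjusted p below 0.05 for MMTV-Cre against p53 tumours and 1 for Ad-Cre against MMTV-Cre tumours.

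Of 21 other measured p53 targets, 2 were higher and 2 lower in Ad-Cre (19.0% called, against 12.4% of all genes), 3 higher and 6 lower in MMTV-Cre (42.9%, against 24.6%), and 1 higher and 6 lower in p53 tumours (33.3%, against 19.6%), relative to normal tissue. Igfbp3, a binding protein of insulin-like growth factors, rose by 2.09 ± 0.42 in Ad-Cre (adjusted p = 0.00352) and 1.85 ± 0.29 in MMTV-Cre tumours (adjusted p = 2.33e-04). The cytokine gene Lif rose by 1.51 (adjusted p = 0.0267) and 1.20 (adjusted p = 0.00686) in the same models. Fermt1, the epithelial integrin adaptor kindlin-1, fell by 2.23 in Ad-Cre, 2.16 in MMTV-Cre and 1.96 in p53 tumours (adjusted p = 1.86e-04, 2.44e-06 and 1.05e-04), and Kank3 fell by 1.06, 0.75 and 0.87 (adjusted p = 0.0234, 0.0119 and 0.0225).

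Dram1, a lysosomal protein of autophagy, fell by 1.33 in MMTV-Cre (adjusted p = 2.33e-04) and 0.91 in p53 tumours (adjusted p = 0.0231), and Trim7 fell by 0.58 (adjusted p = 0.00121) and 0.69 (adjusted p = 0.00238). In MMTV-Cre tumours Gtse1, a mitotic protein that restrains p53, rose by 0.76 (adjusted p = 0.0182), the cyclin gene Ccnd2 fell by 1.14 (adjusted p = 0.0414), and Ano3 was called lower with both group means below the dim level, so no difference is given for it. In p53 tumours Cd80, a costimulatory molecule of antigen-presenting cells, rose by 1.44 (adjusted p = 0.0187), while Steap3, a metalloreductase, fell by 0.94 (adjusted p = 0.0303) and Abhd4 by 0.66 (adjusted p = 0.00603). The macrophage markers stood at 11.21, 12.84 and 11.90 in the p53 tumours beside this Cd80 value, against 10.08 to 10.50 in normal tissue, and their part in it was not tested. None of the 21 passed between tumour groups in the limma fit, where 7 had an unadjusted p below 0.05 for MMTV-Cre against p53 tumours and 1 for Ad-Cre against MMTV-Cre tumours.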

How the data were processed

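Total RNA of each sample was hybridised to an Affymetrix Mouse Gene 1.0 ST array. The deposited table holds log2 levels for 35556 probe sets, from RMA in Partek 5.6 per the submitters' processing notes; no source used here gives further settings or the build. Genes were read from probe sets with a single symbol (21789; 1621 had several and 12146 none here), of which 21698 were found in the gene table through Entrez IDs. The probe set with the highest mean stood for a symbol, which gave 19938 genes. Groups came from the labels. Tests used limma 3.58.1 in R 4.3.3 (lmFit, then eBayes; two-sided) for 5 comparisons, with Benjamini-Hochberg adjustment across genes. The fit was also tested on simulated data of 19938 genes, with 200 changed and independent normal noise of each gene's own SD. There it recovered 77% of changes of 1 log2 unit for MMTV-Cre tumours against normal tissue and 55% for Ad-Cre tumours. The real comparisons called a larger share of genes and include an array unlike the rest, so these rates need not hold for them. The number of arrays limits the precision.

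All 33 targets are accounted for. Folds are given for each target past the threshold, and array values for those with the largest folds, for Mdm2, Ccng1, Bbc3, Pmaip1 and Fas, and for calls between tumour groups; targets outside this rule were chosen after their values were seen. The p53 half-site and element were searched by script. The targets, the lists and the tests were chosen with earlier results of these data known.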

Additional observations from a re-analysis of the deposited data

Results flagged for a closer look

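Of 62 groups of 5 or 7 arrays of a target, 4 held an array whose gap to its neighbour was large beside the range of its group; chance gives about 1 in 20. Pmaip1 was 7.02 in MMTV-Cre replicate 4, against 7.34 in the nearest of the other MMTV-Cre tumours. Rps27l was also lowest there, at 10.40, against 10.74. Ckap2 was 10.54 in MMTV-Cre replicate 3, against 9.59 in the nearest. Plk3 was 8.67 in normal replicate 5, against 9.08 in the nearest. Between MMTV-Cre Rb/p53 and p53 tumours the test of the difference itself passed for Tnfrsf10b (log2 difference 1.72) and for Pmaip1 (-0.68).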

How the results depend on the processing

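The 155 log2 differences of the 31 targets were recomputed under 30 alternatives, 17 of which leave out 1 array. None of the 26 called differences changed sign, 2 stayed past the threshold under every alternative (Apaf1 and Phlda3 in p53 tumours against normal tissue), and 20 lost it under at least 1 alternative other than a minimum fold. No paired analysis was done, because the labels match no tumour with a normal sample and replicate numbers only follow accession order. Where a count of calls moved, the cause was not tested unless fewer arrays or a stricter rule made it.

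For MMTV-Cre tumours against normal tissue, 12 targets and 4898 genes were called; a difference of at least 1 log2 unit left 3 and 1601, and the tumours not labelled as transplants alone gave 2 and 2024. Leaving out 1 array gave 10 to 15 targets and 3874 to 6259 genes. For Ad-Cre tumours against normal tissue (4 and 2475), the minimum difference left 1 and 1248, only the arrays compared gave 12 and 4422, and leaving out 1 array gave 0 to 9 and 1196 to 3802. For p53 tumours against normal tissue (8 and 3902), the minimum difference left 2 and 1609, and leaving out 1 array gave 6 to 9 and 3059 to 5220.

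For MMTV-Cre against p53 tumours (2 and 187), array weights gave 0 and 48, cyclic loess 0 and 108, quantile normalisation again 1 target, the minimum difference 1 and 76, and only the arrays compared 0 and 1. MMTV-Cre transplants alone gave 0 targets and 165 genes, and tumours not labelled as transplants 0 and 1. All probe sets gave 355 features, both Cre models as 1 group 356 genes, and p53 replicate 3 moved to the MMTV-Cre tumours 5 and 3041. Leaving out 1 array gave 0 to 5 and 10 to 2704. For Ad-Cre against MMTV-Cre tumours (0 targets throughout, 5 genes), an intensity trend gave 8 genes, cyclic loess 9, the minimum difference 3, only the arrays compared 1, transplants alone 2, p53 replicate 3 moved 3, and leaving out 1 array 3 to 78.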
